A study of Mus musculus with 16 samples.

Results

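The genes of the ISG15 conjugation system were Isg15, Uba7, Ube2l6, Herc6, Trim25 and Usp18. They were taken as the probes of an Agilent one-color array, used here with kidney RNA, whose transcript accession belongs to 1 of these 6 genes. This gave 7 probes of 56605 and 6 genes of the 22911 named. Trim25 had 2 probes and each of the other genes had 1. RNA came from the kidneys of 16 mice aged 6 months, 4 per genotype and 1 mouse per array. The WT mice were C57BL/6. The Sting-ko mice were also labelled C57BL/6, and the study describes its STING-deficient line as Goldenticket mice (Sting gt), a functional knockout. The Fcgr2b-ko mice lack the inhibitory Fc receptor of B cells and myeloid cells, are labelled lupus mouse, and are on a mixed 129/C57BL/6 background. The double-deficient mice (Fcgr2b-ko, Sting-ko) were made by crossing these lines and are labelled with that mixed background too. The heatmaps of the study head the Fcgr2b-ko columns Fcgr2b-/-.Sting wt/gt, whereas the labels name the Fcgr2b deletion alone. No group received an agent. Fcgr2b deficiency coincided with the mixed background, so their effects on any gene cannot be told apart.

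ISG15 is a ubiquitin-like protein that cells make in response to type I interferon. It is activated by UBA7, passed to the conjugating enzyme UBE2L6 and attached to lysines of target proteins by a ligase, which in mice is chiefly HERC6. USP18 removes ISG15 from its targets and also restrains the type I interferon receptor, and the genes for all of these proteins are themselves induced by interferon. TRIM25 is a ubiquitin ligase of the RIG-I pathway that has also been described as an ISG15 ligase. STING is the adaptor that turns the sensing of cytosolic DNA into type I interferon, and an interferon signature is a hallmark of lupus.

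Interferon-induced genes are commonly switched on through the interferon-stimulated response element, a short sequence in their promoters. The promoters of 5 of the 6 genes were found in a RefSeq table (build GRCm38.p6), and that of Usp18 was not in it. Both strands of each window of 300 bases, 250 before the transcript start and 50 after it, were searched for the core of that element (GAAA, any 2 bases, GAAA). Of all 32851 promoter windows, 3.44% held the motif. It was found in Isg15 alone among the 5, in 3 overlapping copies on the strand of the gene that began 78, 72 and 66 bases before the start and together covered 22 bases. The 120 bases before the start are given in the direction of transcription for Isg15, which holds the match, and for Uba7 and Trim25, which do not, because the signal of Uba7 followed that of Isg15 across the mice more closely than the signal of Trim25 did. Capitals mark the letters that match the motif. The stretches lie at chr4:156200819-156200938 on the minus strand (Isg15), chr9:107975447-107975566 on the plus strand (Uba7) and chr11:88999283-88999402 on the plus strand (Trim25).
Isg15: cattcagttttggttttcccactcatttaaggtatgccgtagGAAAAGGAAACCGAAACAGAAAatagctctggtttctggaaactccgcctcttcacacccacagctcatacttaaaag
Uba7: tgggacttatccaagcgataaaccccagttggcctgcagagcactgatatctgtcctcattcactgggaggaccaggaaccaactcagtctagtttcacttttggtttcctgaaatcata
Trim25: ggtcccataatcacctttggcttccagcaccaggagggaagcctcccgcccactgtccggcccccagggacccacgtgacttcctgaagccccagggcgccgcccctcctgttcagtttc
A match is a description of the letters in these windows, and sites farther away were not searched. Only exact matches were counted. Stretches that differ from the motif by a single letter, which the printed Uba7 and Trim25 sequences hold on the opposite strand, are not marked.

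Values are log2 probe signals after subtraction of the 75th percentile within each array, so 1 unit is 2-fold. The array-wide 75th percentile, before scaling, was 276.0 to 656.9 intensity units, 28441 to 35564 probes per array were well above background, and 0 spots were saturated. As a check of the labels, Fcgr2b ran from 1.14 to 2.13 in the WT mice, from 0.024 to 0.70 in the Fcgr2b-ko mice and from −0.40 to 0.50 in the double-deficient mice. In the Sting-ko mice it ran from −0.19 to 1.54, and Sting-ko replicate 4, the lowest, lay among the Fcgr2b-deficient arrays. Sting1 did not separate the Sting genotypes (WT −1.35 to 1.03, Sting-ko −0.099 to 1.01). The study calls its Sting line a functional knockout and does not say that the RNA is lost. The Sting1 signal therefore cannot check the Sting label either way. Sting1 ran from −0.27 to 2.69 in the Fcgr2b-ko mice, highest in replicates 1 and 4 (2.69 and 2.49), and from −0.57 to 0.90 in the double-deficient mice. The arrays lay on 2 slides of 8 arrays, with 2 and 2 of the WT, 3 and 1 of the Fcgr2b-ko, 1 and 3 of the double-deficient and 2 and 2 of the Sting-ko arrays on slides 1 and 2. All 7 probes passed the filter on low signal (4 or more of the 16 arrays had to measure a probe well above background). The 6 probes other than that of Herc6 were well above background on all 16 arrays, whereas Herc6 was so on 9, namely 1 WT, 3 Fcgr2b-ko, 2 double-deficient and 3 Sting-ko arrays.

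Isg15, the modifier itself, was at 2.06, 0.999, 1.55 and 2.03 in WT replicates 1 to 4. In Fcgr2b-ko replicates 1 to 4 it was at 3.97, 2.03, 1.44 and 3.59. The double-deficient mice were at 1.58, 1.51, 2.03 and 0.98, and the Sting-ko mice at 2.97, 1.38, 2.25 and 1.84. Replicates 1 and 4 of the Fcgr2b-ko mice were the 2 highest of the 16, replicates 2 and 3 lay within the WT range, and no pair of groups was separated. The group means were highest in the Fcgr2b-ko mice at 2.76 ± 1.21 (SD, n = 4), followed by the Sting-ko mice at 2.11 ± 0.67, the WT mice at 1.66 ± 0.50 and the double-deficient mice at 1.53 ± 0.43. Each mean differed from the next in this order by less than the spread within a genotype, which was 0.77 pooled over the groups. The Fcgr2b-ko and WT means differed by more than that spread (log2 change 1.09). So did the double-deficient and Fcgr2b-ko means (log2 change −1.23).

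**Figure D1:**
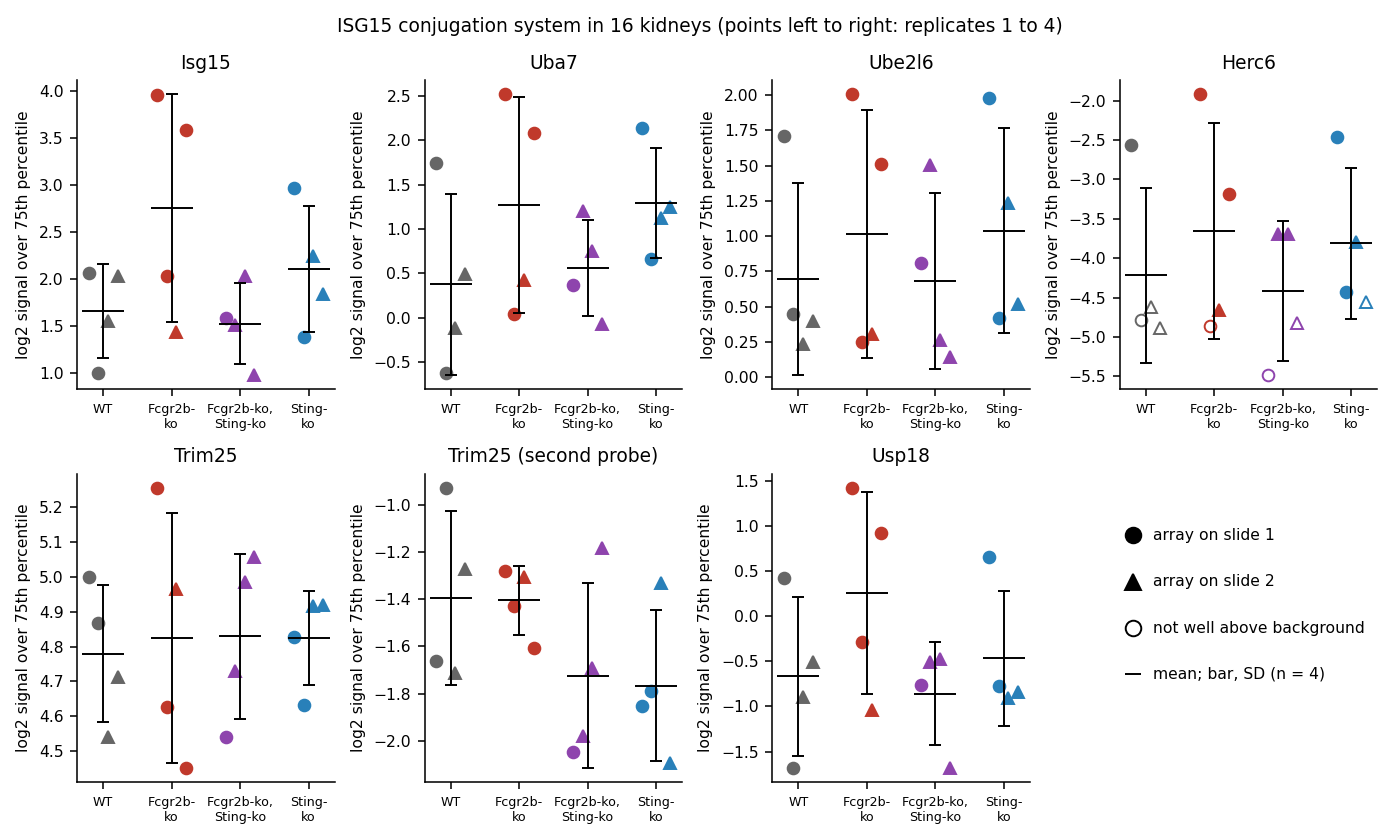
Log2 signal, scaled to the 75th percentile within each array, for the 7 probes (one panel each, vertical axes differ) in the 4 genotypes. Points are single mice, circles for slide 1 and triangles for slide 2, open where the probe was not well above background, with the mean and SD (n = 4). In Isg15, 2 of 4 Fcgr2b-ko mice, at 3.97 and 3.59, lie above every other mouse and the other 2 among the WT mice, whereas the brighter Trim25 probe keeps all 16 mice between 4.45 and 5.26.

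Uba7, the activating enzyme, was at 1.74, −0.62, −0.12 and 0.49 in WT replicates 1 to 4 and at 2.52, 0.041, 0.42 and 2.08 in the Fcgr2b-ko mice. In the double-deficient mice it was at 0.37, 1.199, 0.75 and −0.071, and in the Sting-ko mice at 2.14, 0.66, 1.12 and 1.24. The high mice were again Fcgr2b-ko 1 and 4, joined by Sting-ko 1 and WT 1, so every genotype but the double-deficient one held 1 of the 4 highest mice or more. The mean was nearly the same in the Sting-ko mice, 1.29 ± 0.62 (SD, n = 4), as in the Fcgr2b-ko mice, 1.27 ± 1.22.

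Ube2l6, the conjugating enzyme, was at 1.71, 0.45, 0.23 and 0.40 in WT replicates 1 to 4, at 2.01, 0.25, 0.30 and 1.51 in the Fcgr2b-ko mice, at 0.81, 1.51, 0.26 and 0.14 in the double-deficient mice, and at 1.98, 0.42, 1.24 and 0.52 in the Sting-ko mice. The 4 group means lay between 0.68 and 1.04, whereas the Fcgr2b-ko mice alone ran from 0.25 to 2.01. Of the variance of this probe over the 16 mice, 6.66% lay between genotypes, against 34.2% for Isg15. With 4 mice a group such shares are above 0 even without a genotype difference, and they were not tested.

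Of the ligases, Herc6 was at −2.56, −4.79, −4.62 and −4.89 in WT replicates 1 to 4, with only the first of these well above background. It was at −1.92, −4.86, −4.66 and −3.18 in the Fcgr2b-ko mice, at −5.48, −3.69, −3.69 and −4.82 in the double-deficient mice, and at −2.46, −4.43, −3.79 and −4.56 in the Sting-ko mice. The mice highest for Herc6 were the same 4 that were highest for Uba7 and Ube2l6, although in Ube2l6 the fourth of them, Fcgr2b-ko 4, was level with double-deficient replicate 2. The values of the 7 arrays not well above background give only a bound.

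Neither of the 2 probes of Trim25 followed Isg15 across the mice in this scaling, and the probes differed from each other. The brighter one was at 4.998, 4.87, 4.54 and 4.71 in WT replicates 1 to 4, at 5.26, 4.63, 4.97 and 4.45 in the Fcgr2b-ko mice, at 4.54, 4.73, 4.99 and 5.06 in the double-deficient mice, and at 4.83, 4.63, 4.92 and 4.92 in the Sting-ko mice. Fcgr2b-ko replicate 4, the mouse second highest in Isg15, was the lowest of all 16 here. The group means lay between 4.78 and 4.83, and 0.87% of the variance lay between genotypes. The second probe, at −2.09 to −0.93 over the 16 mice, had a correlation of 0.38 with the first (n = 16 arrays). Its group means were −1.39 (WT), −1.40 (Fcgr2b-ko), −1.72 (double-deficient) and −1.77 (Sting-ko), and 28.0% of its variance lay between genotypes. The small share of the brighter probe thus does not hold for both probes of the gene.

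Usp18, the ISG15 protease, was at 0.43, −1.69, −0.89 and −0.51 in WT replicates 1 to 4, at 1.42, −0.28, −1.04 and 0.93 in the Fcgr2b-ko mice, at −0.76, −0.51, −0.47 and −1.68 in the double-deficient mice, and at 0.66, −0.77, −0.90 and −0.84 in the Sting-ko mice. The Fcgr2b-ko mean of 0.26 ± 1.12 (SD, n = 4) was the only one above 0. Sting-ko replicate 1 stood above the other 3 Sting-ko mice, which lay between −0.90 and −0.77.

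**Figure D2:**
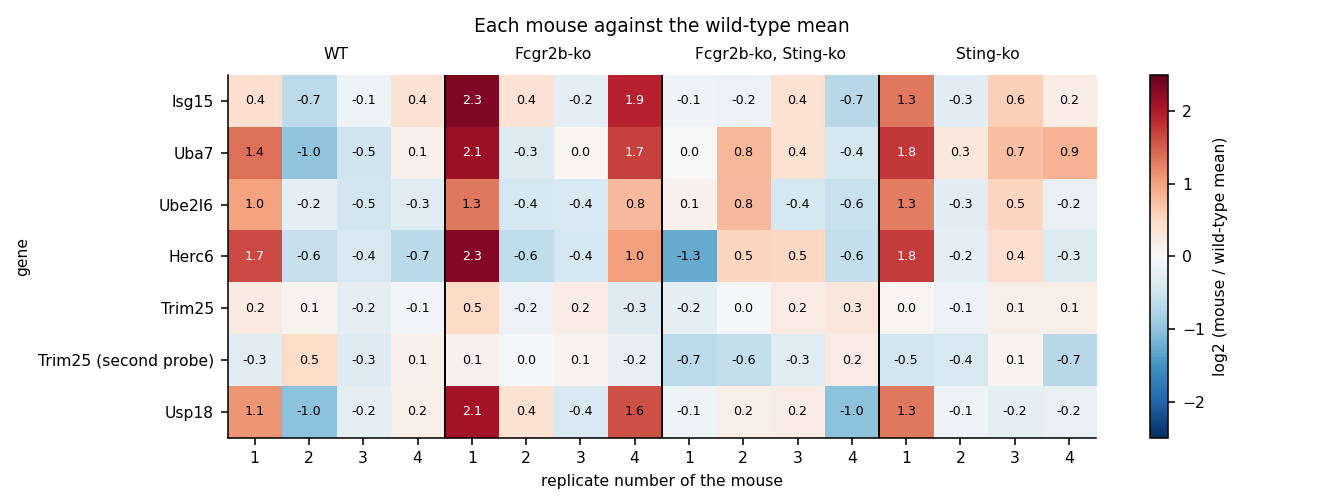
Log2 ratio of each of the 16 mice to the mean of the 4 WT mice for the 7 probes (rows), with mice in columns by genotype and replicate number. Fcgr2b-ko replicate 1 is highest for all 6 genes, and Fcgr2b-ko 4, Sting-ko 1 and WT 1 are the next highest for Uba7, Ube2l6, Herc6 and Usp18.

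Set against the WT mean, the mice fell unevenly within each genotype. The number of the 6 genes at least 2-fold above that mean was 5 in Fcgr2b-ko replicate 1, 4 in Fcgr2b-ko replicate 4, 5 in Sting-ko replicate 1 and 4 in WT replicate 1, and it was 0 in each of the other 12 mice. The median over the 6 genes was 2.12 and 1.31 in Fcgr2b-ko replicates 1 and 4, and −0.24 and −0.30 in replicates 2 and 3. It was 1.05 in WT replicate 1 and 1.31 in Sting-ko replicate 1, and in the double-deficient mice it ran from −0.58 to 0.34. These 4 arrays all lay on slide 1, and WT 1, Sting-ko 1 and Fcgr2b-ko 1 occupied columns 1, 2 and 3 of its row 1. WT 2, in column 4 of that row, was at −0.62. The part that array position played in these values was not tested.

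The first question of the design was what the Fcgr2b deletion did. All 6 genes had a higher mean in the Fcgr2b-ko than in the WT mice, except that Trim25 was at −0.11 when arrays were scaled by their median, and limma called 0 of them (adjusted p under 0.05 and at least 2-fold), beside 18 probes or 0.0505% of the 35628 tested. The log2 change of Isg15 was 1.09 (SE 0.51, 95% confidence interval 0.010 to 2.18, unadjusted p = 0.048, adjusted p = 0.9996 in limma). Usp18 was higher by 0.92 (SE 0.56) and Uba7 by 0.89 (SE 0.58), both with intervals that include 0. The changes were 0.56 (SE 0.71) for Herc6, 0.32 (SE 0.49) for Ube2l6, and 0.045 (SE 0.22) and −0.012 (SE 0.26) for the 2 probes of Trim25. The median over the 6 genes was 0.73, where that of all tested probes was −0.055. Isg15 was thus the 1 member at an unadjusted p under 0.05, a share to set beside 3.35% of all probes, and 0 of the 7 probes had groups that did not overlap, beside 1.24% of all probes. In the exact two-sided Mann-Whitney test, which the study's methods name, the smallest p of a member was 0.343 (Uba7 and Usp18). From its kidney arrays the study reported higher interferon-inducible genes in the Fcgr2b-deficient mice, above all in those with more severe disease. It reported these genes as significantly reduced in the double-deficient kidneys, though not all of them. The study also measured kidney Isg15 by real-time PCR in larger groups of mice. It reported Isg15 as raised in the Fcgr2b-deficient mice and lowered where STING was absent. Within slides, Isg15 changed by 1.66 (SE 0.76) on slide 1 and by −0.35 (SE 0.55) on slide 2, where replicate 3 was the only Fcgr2b-ko mouse, so that slide and mouse cannot be told apart there. With the slide as a block the change was 1.004 (SE 0.52). Without Fcgr2b-ko replicate 1 the changes were 0.69 for Isg15, 0.53 for Usp18, 0.48 for Uba7, −0.018 for Herc6 and −0.009 for Ube2l6, and the median over the 6 genes was 0.23. That median was 1.17 without WT replicate 1 and 0.46 without WT replicate 2.

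The second question was what the loss of STING did where Fcgr2b was absent. Relative to the Fcgr2b-ko mice, the double-deficient mice had lower means for 5 of the 6 genes, or for all 6 with quantile scaling (Trim25 then at −0.083), and limma again called 0 members, as it did 0% of all probes. The log2 change was −1.23 for Isg15 (SE 0.51, 95% confidence interval −2.31 to −0.15, unadjusted p = 0.029, adjusted p = 0.9999 in limma) and −1.11 for Usp18 (SE 0.56, interval −2.31 to 0.076). The changes were −0.77 (SE 0.71) for Herc6, −0.71 (SE 0.58) for Uba7 and −0.34 (SE 0.49) for Ube2l6. Trim25 was at 0.0043 (SE 0.22) and its second probe at −0.32 (SE 0.26). The median over the 6 genes was −0.74, beside 0.055 over all tested probes. The 1 member at an unadjusted p under 0.05 stands beside 1.81% of all probes, and 0 of the 7 probes had groups that did not overlap, beside 1.02%. This comparison uses the same 4 Fcgr2b-ko arrays as the one before, so the opposite signs are in part fixed by those arrays. Within slides, Isg15 differed by −1.61 (SE 0.97) on slide 1, which held 1 double-deficient array, and by 0.070 (SE 0.52) on slide 2, which held 1 Fcgr2b-ko array. Without Fcgr2b-ko replicate 1 the changes were −0.83 for Isg15, −0.73 for Usp18, −0.29 for Uba7, −0.19 for Herc6 and −0.007 for Ube2l6, and the median over the 6 genes was −0.24. That median was −1.14 without Fcgr2b-ko replicate 2.

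With both deletions the means lay near those of the WT mice. The changes in the double-deficient against the WT mice were −0.14 (SE 0.51, 95% confidence interval −1.22 to 0.95) for Isg15, 0.19 (SE 0.58) for Uba7, −0.017 (SE 0.49) for Ube2l6, −0.20 (SE 0.71) for Herc6, 0.049 (SE 0.22) for Trim25 (second probe −0.33, SE 0.26) and −0.19 (SE 0.56) for Usp18. Limma called 0 members and 0% of all probes, 0 members had an unadjusted p under 0.05 (0.424% of all probes did), and 0 of the 7 probes had groups that did not overlap (0.547% of all probes). The interval of Isg15 includes both no change and a 2-fold fall.

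The loss of STING alone, against the WT mice, gave positive changes for all 6 genes by their brightest probe (with arrays scaled by their median, Trim25 was at −0.20 and Usp18 at −0.044), of which limma called 0, as it did 0% of all probes. The largest was that of Uba7, 0.92 (SE 0.58, 95% confidence interval −0.33 to 2.16, adjusted p = 0.732 in limma). Isg15 was at 0.45 (SE 0.51), Herc6 at 0.40 (SE 0.71), Ube2l6 at 0.34 (SE 0.49), Usp18 at 0.20 (SE 0.56) and Trim25 at 0.044 (SE 0.22). The second probe of Trim25 went the other way, at −0.37 (SE 0.26). The median was 0.37, beside 0.0015 over all tested probes. At an unadjusted p under 0.05 there were 0 members, where 3.76% of all probes passed, and 0 of the 7 probes had groups that did not overlap, beside 2.04%. Without Sting-ko replicate 1 that median was 0.035, with Isg15 at 0.16, Uba7 at 0.63, Ube2l6 at 0.027, Herc6 at −0.046 and Usp18 at −0.17. Without Sting-ko replicate 4, whose Fcgr2b signal lay among the deficient arrays, Isg15 was at 0.54 and Uba7 at 0.93. Leaving out any other WT or Sting-ko mouse gave a median between 0.22 (without WT replicate 2) and 0.63 (without WT replicate 1).

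Whether the loss of STING acted differently with and without Fcgr2b was asked by the interaction. It was negative for all 6 genes by their brightest probe, except that Trim25 was at 0.24 when arrays were scaled by their median, with values of −1.68 (SE 0.72, 95% confidence interval −3.21 to −0.15, unadjusted p = 0.034, adjusted p = 0.661 in limma) for Isg15, −1.62 (SE 0.83) for Uba7, −1.31 (SE 0.79) for Usp18, −1.17 (SE 1.002) for Herc6, −0.68 (SE 0.69) for Ube2l6 and −0.039 (SE 0.32) for Trim25, whose second probe was at 0.053 (SE 0.37). Limma called 0 of them and 0% of all probes, and the 1 member at an unadjusted p under 0.05 stands beside 6.27% of all probes.

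**Figure D3:**
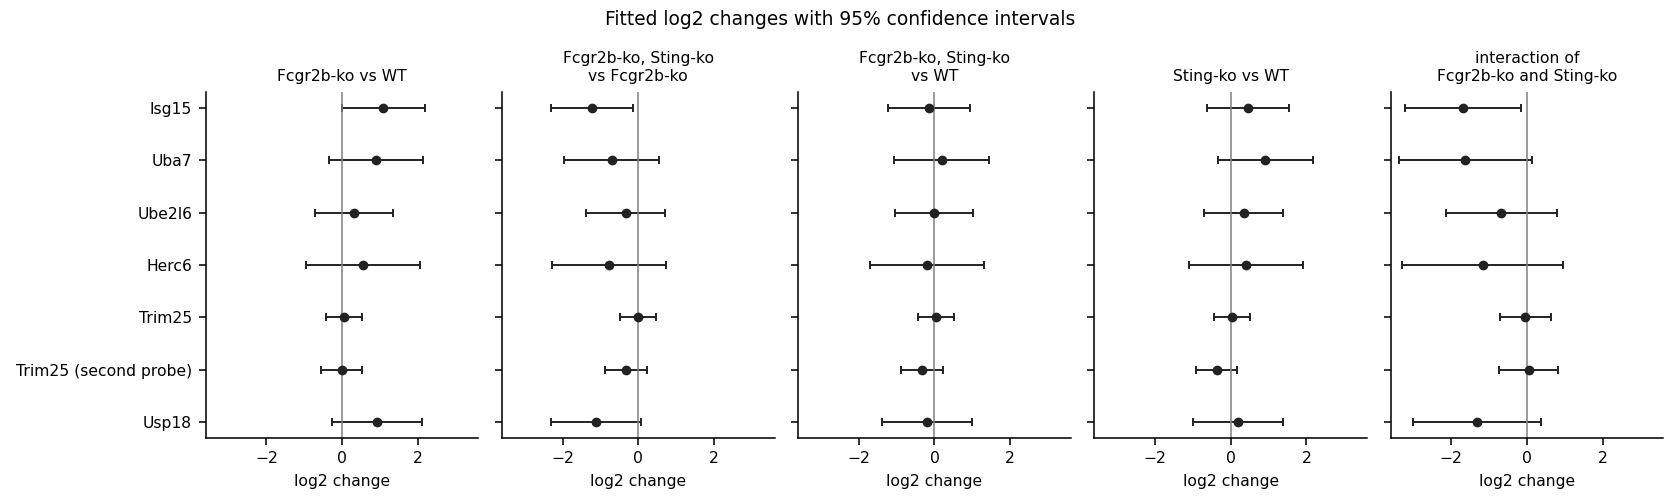
Fitted log2 change (horizontal axis) of each member probe in the 4 pairwise comparisons and the interaction, with bars for the 95% confidence interval from limma over 16 arrays. The interval of Isg15 lies to the right of 0 for Fcgr2b-ko against WT (0.010 to 2.18) and to the left of it for the double-deficient against the Fcgr2b-ko mice and for the interaction, and every other interval includes 0.

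Apart from Trim25, the members varied together from mouse to mouse. Over the 16 mice, the Pearson correlation of Isg15 was 0.92 with Usp18 (Spearman 0.79), 0.85 with Uba7 (0.77), 0.77 with Herc6 (0.61) and 0.72 with Ube2l6 (0.64). By a two-sided permutation test with 100000 relabellings, the adjusted p of the Pearson values, over the 5 relations computed, was 5e-05, 7.5e-05, 0.00158 and 0.0019, and that of the Spearman values was 0.00182, 0.00182, 0.0165 and 0.0134 in the same order. The raw p were 1e-05, 3e-05, 0.00095 and 0.00152 for Pearson, 1e-05 being the smallest the permutations can give, and 0.00051, 0.00073, 0.0132 and 0.00805 for Spearman. For Trim25 the relation depended on the scaling. It was 0.12 (Spearman 0.047, permutation p = 0.669 and 0.864, the same after adjustment), −0.16 with arrays scaled by their median, 0.54 with quantile scaling (adjusted permutation p = 0.0341) and 0.60 in the authors' table (adjusted permutation p = 0.0161). Its second probe was at −0.046 (Spearman −0.082, permutation p = 0.867 and 0.763). Without Fcgr2b-ko replicates 1 and 4, the 2 arrays farthest from the median of Isg15, Pearson correlations of 0.84, 0.75, 0.64 and 0.60 remained for Usp18, Uba7, Herc6 and Ube2l6, and Trim25 was at 0.013. The Spearman values then fell to 0.44 for Herc6 and 0.49 for Ube2l6 (adjusted permutation p = 0.144 and 0.135). With genotype means removed and mice permuted within genotypes, the Pearson correlations were 0.91, 0.86, 0.78 and 0.76 for Usp18, Uba7, Herc6 and Ube2l6. That of Trim25 was 0.12.

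Apart from Trim25, the correlations were positive on both slides, but only on slide 1 did the Pearson values have an adjusted p under 0.05. By Spearman correlation on slide 1, Herc6 (0.74) and Ube2l6 (0.76) did not pass (exact permutation test, adjusted p = 0.0573 for both), whereas Usp18 and Uba7 did. On slide 1, with 8 arrays, the Pearson correlations of Isg15 were 0.95 with Usp18, 0.88 with Uba7, 0.78 with Herc6 and 0.79 with Ube2l6 (exact permutation test, adjusted p = 0.00124, 0.0109, 0.0367 and 0.0367). On slide 2, with the other 8 arrays, they were 0.70, 0.58, 0.43 and 0.31 in the same order (exact permutation test, adjusted p = 0.237, 0.330, 0.458 and 0.554). The unadjusted p of Usp18 on slide 2 was 0.0473 in the same permutation test. Isg15 spanned 0.999 to 3.97 on slide 1 and 0.98 to 2.25 on slide 2. With 8 arrays and this narrower span, the slide 2 values cannot show that the relation is absent there.

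**Figure D4:**
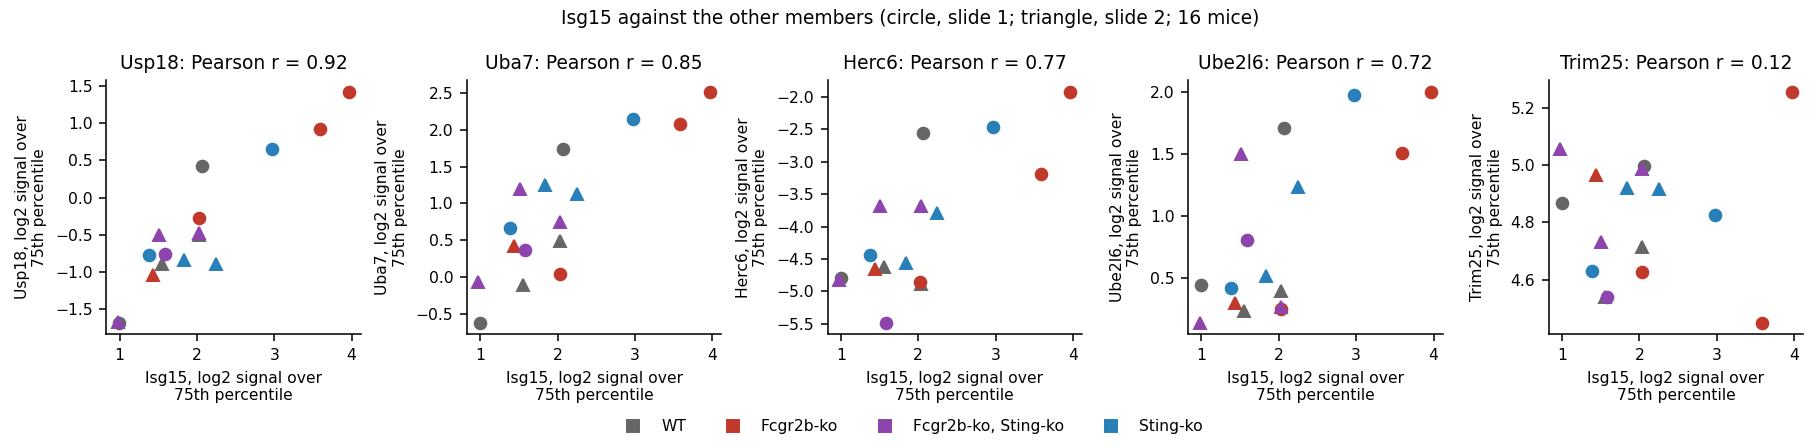
Log2 signal of Isg15 (horizontal axis) against that of each other member (vertical axis), both scaled to the 75th percentile within each array, with 1 point per mouse, colour for genotype and circles or triangles for slides 1 and 2. Usp18 lies closest to a line with Isg15 (Pearson 0.92), and Trim25 is spread across it (0.12, but 0.54 with quantile scaling).

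Other genes followed Isg15 as closely. Of 16391 other named genes with a tested probe, 87 had a Pearson correlation over 0.9 with Isg15 over the 16 arrays. Usp18 was 31st in that order, Uba7 350th, Herc6 954th, Ube2l6 1351st and Trim25 6088th. The 10 closest that are not members were Irf7 (0.98), Oas1f (0.98), Oas1a (0.97), Bst2 (0.97), Cnp (0.96), H2-Ab1 (0.96), Ifitm3 (0.95), Pglyrp2 (0.95), Oasl2 (0.95) and Samhd1 (0.95). The 3 closest to Usp18 were Irf9 (0.98), Bst2 (0.97) and Irf8 (0.97), and for Uba7 they were Cd34 (0.99), Gjc1 (0.98) and Rcsd1 (0.98). Ube2l6 was most like Scd4 (0.98), Hgf (0.97) and Plac9a (0.96), Herc6 most like Apold1 (0.95), Hk2 (0.94) and Cxcr6 (0.94), and Trim25 most like R3hdm1, Bach2 and Slc38a6 (0.84, 0.84 and 0.83). Irf7, Irf8 and Irf9 encode interferon-regulatory transcription factors, and Oas1a, Bst2, Ifitm3 and Samhd1 encode antiviral proteins. These genes were among those closest to Isg15 or Usp18, and none was among the 3 closest to Uba7, Ube2l6 or Herc6. In the order for Uba7, with which 501 genes had a correlation over 0.9, Isg15 was 980th. It was 1685th in the order for Ube2l6, 1257th for Herc6 and 62nd for Usp18. All these correlations share arrays and scaling and carry no test.

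In contrast to the ISG15 system, the general ubiquitin system lay near the WT mean in the high mice by list median, although single genes were higher. Of 13 measured genes for ubiquitin and other ubiquitin-like modifiers, 1 had a higher and 12 a lower mean in the Fcgr2b-ko than in the WT mice, 0 were called and 0 had an unadjusted p under 0.05, with a median log2 change of −0.18 beside −0.055 over all named genes. With quantile scaling 8 of them were higher and 5 lower, with a median of 0.020, so the list has no direction that holds across scalings. The largest changes were −0.38 (SE 0.34) for Nedd8, 0.32 (SE 0.81) for Ubd, which encodes the interferon-inducible modifier FAT10, and −0.27 (SE 0.40) for Sumo3. The median over these genes was −0.32 in Fcgr2b-ko replicate 1 and −0.31 in replicate 4, where that of the ISG15 system was 2.12 and 1.31. It was −0.19 in Sting-ko replicate 1 and −0.079 in WT replicate 1. In each of Fcgr2b-ko replicates 1 and 4, 1 of the 13 genes was at least 2-fold above the WT mean. Of 14 relatives of the ISG15 enzymes in the ubiquitin pathway, 4 had a higher and 10 a lower mean, 0 had an unadjusted p under 0.05, and the median was −0.12. Among them Ube2l3, the closest relative of Ube2l6, was at −0.27 (SE 0.30), Uba1, the ubiquitin-activating enzyme, at 0.07 (SE 0.48), and the largest changes were those of Herc2 (0.45, SE 0.72), Herc4 (−0.41, SE 0.48), Usp16 (−0.33, SE 0.29) and Uba3 (−0.33, SE 0.36). The number of these relatives at least 2-fold above the WT mean was 2 in Fcgr2b-ko replicate 1 and 1 in WT replicate 1. It was 0 in Fcgr2b-ko replicate 4 and Sting-ko replicate 1.

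Of 15 genes for proteins that have been reported to bind ISG15 or carry it, 8 had a higher and 7 a lower mean in the Fcgr2b-ko than in the WT mice, 0 were called and 2 had an unadjusted p under 0.05. These were Itgb2, with a log2 change of 2.14 (SE 0.62, unadjusted p = 0.00332, adjusted p = 0.741 in limma), and Itgal, with 1.69 (SE 0.50, unadjusted p = 0.00392, adjusted p = 0.780), the chains of the leukocyte integrin LFA-1 that binds extracellular ISG15. Ifit1 was at 1.19 (SE 0.88) and Ddx58, which encodes RIG-I, at 0.57 (SE 0.35). In the double-deficient against the Fcgr2b-ko mice, Itgb2 was at −1.25 (SE 0.62) and Itgal at −0.98 (SE 0.50), and 0 of the 15 had an unadjusted p under 0.05.

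Of 10 genes of the type I interferon receptor and its signalling, 2 of which are also in the list before, 9 had a higher mean in the Fcgr2b-ko than in the WT mice and 9 a lower mean in double-deficient than in Fcgr2b-ko mice, with 0 called in either. The medians were 0.58 and −0.67. Irf7, which sustains interferon production, was at 1.21 (SE 0.50, unadjusted p = 0.0287, adjusted p = 0.9996 in limma) and −1.42 (SE 0.50, unadjusted p = 0.0125, adjusted p = 0.9999). The feedback inhibitor Socs1 was at 0.85 (SE 0.45) and −0.99 (SE 0.45), Stat2 at 0.75 (SE 0.53) and −0.77 (SE 0.53), and Irf9 at 0.72 and −0.73 (SE 0.39 for both). The median over the 10 genes was 1.67 in Fcgr2b-ko replicate 1 and 1.05 in replicate 4, and −0.04 and −0.22 in replicates 2 and 3.

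By list median, markers of T cells were highest in the 4 mice in which the members were highest, and those of other leukocytes partly so. Summed signals weigh bright genes most, and the brightest gene of a list often carried much of its sum. The summed linear signal of 7 macrophage and monocyte genes, in units of the 75th percentile, ran from 49.5 to 70.7 in the WT, 52.9 to 136.2 in the Fcgr2b-ko, 50.6 to 86.2 in the double-deficient and 55.2 to 252.2 in the Sting-ko mice, the highest being Sting-ko replicate 4. Itgam, with a change of −0.32 (SE 0.57) in the Fcgr2b-ko against the WT mice, made up 20.2% to 87.3% of that sum, and the list median of Sting-ko replicate 4 was 0.33. Of the list, 6 of the 7 had an unadjusted p under 0.05 in the Fcgr2b-ko against the WT mice, with 0 called. The largest changes were 3.21 (SE 0.80) for Lyz2, 2.56 (SE 0.78) for Adgre1, 2.54 (SE 0.84) for Fcgr1 and 2.31 (SE 0.48) for Cd68. The median over that list was 3.03 and 3.67 in Fcgr2b-ko replicates 1 and 4, 1.19 and 0.44 in replicates 2 and 3, 1.37 in Sting-ko replicate 1, 1.21 in double-deficient replicate 2 and 1.11 in WT replicate 1. For 7 T cell genes the summed signal ran from 8.96 to 12.1 in the WT, 9.88 to 19.2 in the Fcgr2b-ko, 9.15 to 11.9 in the double-deficient and 8.82 to 11.2 in the Sting-ko mice, of which Cd4 made up 21.6% to 75.5%. By this sum the order of the mice differed. WT replicate 1, at 9.39, lay below WT replicates 2 and 3, at 11.99 and 12.11. Sting-ko replicate 1, at 11.16, lay below Fcgr2b-ko replicate 2, at 13.25. Of these genes 6 had a higher and 1, Cd4 at −0.15 (SE 0.27), a lower mean in the Fcgr2b-ko than in the WT mice, and 0 had an unadjusted p under 0.05. The list median was 2.76 and 1.90 in Fcgr2b-ko replicates 1 and 4, 1.64 in Sting-ko replicate 1 and 1.001 in WT replicate 1, and at most 0.60 in the other mice. The largest T cell changes in the Fcgr2b-ko mice were 1.29 (SE 0.66) for Cd2, 1.04 (SE 0.82) for Cd3d, 1.01 (SE 0.64) for Lck and 0.91 (SE 0.97) for Cd3g, and Cd8a, at 0.0032 (SE 0.80), was well above background on 6 of 16 arrays.

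For 4 neutrophil genes the summed signal ran from 1.21 to 8.78 in the WT, 1.196 to 32.5 in the Fcgr2b-ko, 1.88 to 3.88 in the double-deficient and 0.64 to 3.31 in the Sting-ko mice, and Mpo was well above background on 7 of the 16 arrays. S100a8 was at 1.47 (SE 0.86), S100a9 at 1.35 (SE 0.90), Retnlg at 1.25 (SE 0.77) and Mpo at 0.53 (SE 0.56). For 5 dendritic cell genes the sum ran from 77.4 to 115.2 in the WT, 71.9 to 161.1 in the Fcgr2b-ko, 81.0 to 142.0 in the double-deficient and 109.1 to 372.6 in the Sting-ko mice. Siglech, at 0.13 (SE 0.37), made up 93.5% to 99.7% of it. The other 4 were Itgax at 2.51 (SE 0.75), Flt3 at 0.57 (SE 0.51), Clec9a at 0.44 (SE 0.996) and Ccr9 at −0.22 (SE 0.41). For 4 B and plasma cell genes it ran from 0.75 to 19.7 in the WT, 1.003 to 7.82 in the Fcgr2b-ko, 1.27 to 7.54 in the double-deficient and 3.18 to 6.94 in the Sting-ko mice, with Cd79b at 1.23 (SE 0.76), Jchain, which made up 24.9% to 83.3% of the sum, at −0.60 (SE 1.05) and Ms4a1 at 0.38 (SE 0.85). Double-deficient replicate 2 had the highest B cell list median, at 2.21, and the second highest dendritic one, at 1.34, and Fcgr2b-ko replicate 4 was at −0.39 for the B cell list. The part of these cells in the level of the ISG15 system was not tested, and in a whole kidney more cells of a type and more RNA per cell cannot be told apart.

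The tissue label was checked against kidney genes. All 9 kidney genes were well above background on every array, and their summed signal ran from 618.5 to 1081 in the WT, 486.0 to 1176 in the Fcgr2b-ko, 573.5 to 1085 in the double-deficient and 669.2 to 1018 in the Sting-ko mice. Nphs1 of the podocyte was at 0.96 (SE 0.52) in the Fcgr2b-ko against the WT mice, and Slc5a2 and Slc34a1 of the proximal tubule were at −0.59 and −0.51 (SE 0.52 for both). The median over the 9 genes was −0.68 in WT replicate 1, −0.53 in Fcgr2b-ko replicate 1, −0.25 in Sting-ko replicate 1 and 0.25 in Fcgr2b-ko replicate 4.

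**Figure D5:**
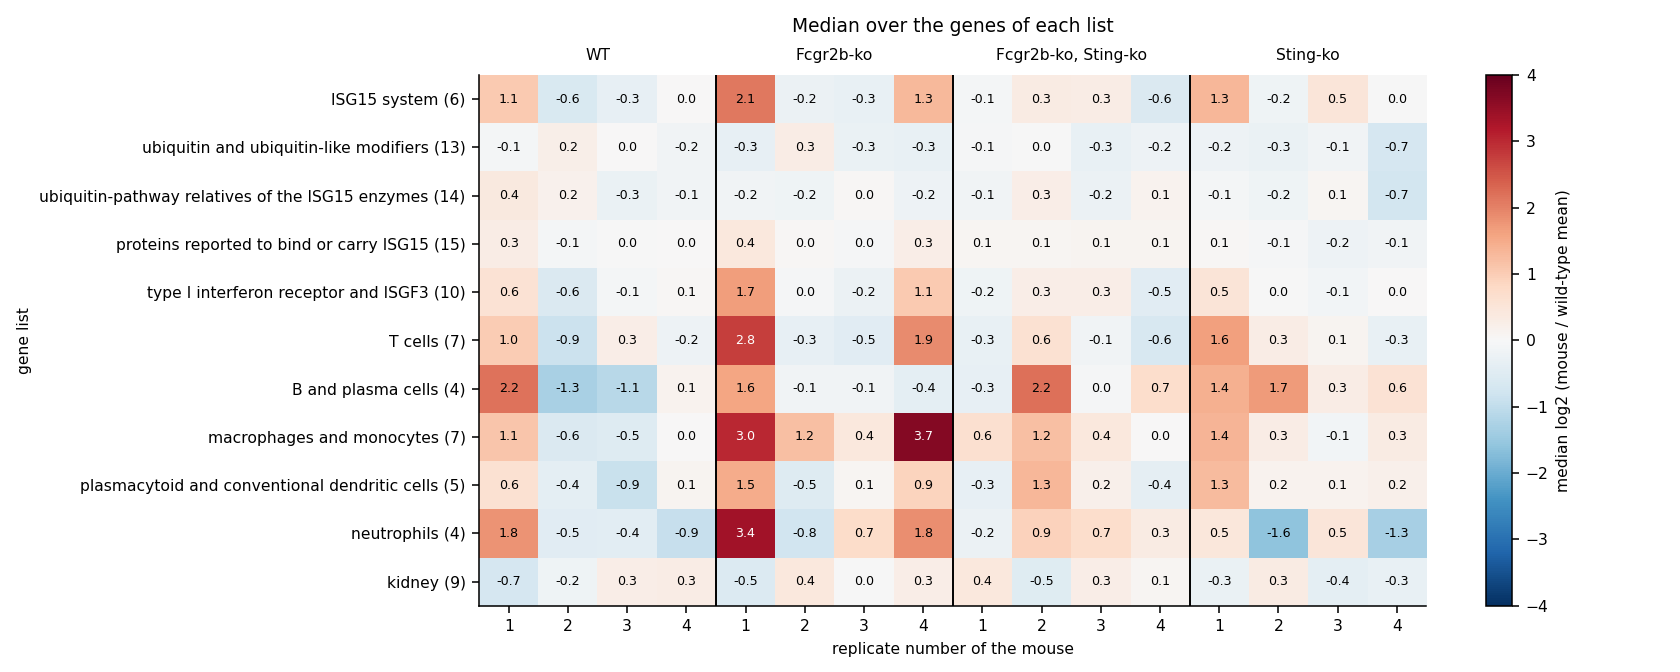
Median over the genes of each list (rows, number of measured genes in brackets) of the log2 ratio of each mouse to the WT mean, for the 16 mice in columns. The rows of the ISG15 system, the interferon receptor and the T cell and macrophage genes are high in Fcgr2b-ko 1 and 4, whereas the rows of ubiquitin-like modifiers and ubiquitin-pathway relatives stay between −0.72 and 0.40.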

How the data were processed

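Kidney RNA (100 ng per mouse) was hybridized to Agilent one-color arrays, and the authors deposited scanner files made with Agilent Feature Extraction (version 11.0 in the submitters' processing notes). The deposited intensities are the authors' processed signals, from which Feature Extraction had subtracted the background, with no scaling between arrays. A deposited table of log2 values, whose processing is not given in the sources used here, served as an alternative. Control and outlier spots were left out, log2 intensities were averaged per probe, and the 75th percentile of each array was subtracted (Python 3.11.15, pandas 2.3.3, numpy 2.4.6). Probes were named by RefSeq accession through a table of GRCm38.p6 (32994 of 56605 probes, 58.29%), and the array annotation uses another build, so no probe coordinates are given.

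The 35628 probes that 4 or more of 16 arrays measured well above background were fitted with limma 3.58.1 (R 4.3.3, statmod 1.5.0), with 1 mean per genotype and Benjamini-Hochberg adjustment over all of them. Called means an adjusted p under 0.05 and at least 2-fold. The fit was tested on simulated data. Permutation tests used scipy 1.17.1 and plots matplotlib 3.10.9. The members and lists were chosen with earlier results of these data known. A gene is given by its brightest tested probe. The genes named are all members, the genes closest in pattern to each (10 for Isg15, 3 for each other), and of each list every gene past the test, of which there was none, and up to 4 with the largest change in the Fcgr2b-ko against the WT mice. Some list genes and 1 searched motif are not reported here. Ube2l3, Uba1, Cd8a, Cd4, Itgam and Siglech were added after their values were seen. Of the lists, Usp13, Cd79a and Xcr1 had no tested probe and Ly6g no named one. The alternatives were normexp background correction (offset 50), quantile and median scaling, the authors' table, no filter or all 16 arrays above background, only the groups compared, eBayes with its trend and robust options, calls without the 2-fold rule, the two-sided exact Mann-Whitney test, slide and replicate blocks, each slide alone, the animal label number as a random block, and each array left out in turn.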

Additional observations from a re-analysis of the deposited data

Results flagged for a closer look

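Among 28 sets of 4 mice (7 probes in 4 genotypes), 3 had a mouse whose gap to its nearest neighbour exceeded Dixon's 95% critical value as a share of the range. Chance gives such a gap in about 1 set in 20. WT replicate 1 stood apart in Ube2l6, at 1.71 where the other WT mice lay between 0.23 and 0.45, with a gap of 0.854 of the range. The same mouse stood apart in Herc6, at −2.56 against −4.89 to −4.62 (0.884 of the range), and was the only WT array on which that probe was well above background. Sting-ko replicate 1 stood apart in Usp18, at 0.66 against −0.90 to −0.77 (0.919 of the range).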

How the results depend on the processing

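No member was called in any of 154 combinations of comparison and setting, so no call on a member depended on the processing. Leaving out 1 array at a time kept the sign of 523 of 560 member changes and turned 37, and the other settings kept 459 of 499 and turned 40. The probes called in the Fcgr2b-ko against the WT mice were 18, and 5 with normexp, 7 in the authors' table, 0 with probes above background on all 16 arrays, 0 with only the groups compared, 67 on slide 1, 0 on slide 2, 3 with the animal number as a random block, and 144 unadjusted or 0 adjusted in the Mann-Whitney test, whose smallest p is 0.0286. Leaving out 1 array gave 0 to 37 of them, with 0 without WT replicate 2, 3 or 4 or Fcgr2b-ko replicate 4, 3 without Fcgr2b-ko replicate 1 and 37 without Fcgr2b-ko replicate 2. The double-deficient against the Fcgr2b-ko mice gave 41 by the unadjusted Mann-Whitney test. Against the WT mice the double-deficient mice gave 1 with normexp, 1 with all 16 arrays above background, 3 with only the groups compared, 2 on slide 1, 2 on slide 2 and 63 by the unadjusted Mann-Whitney test, and 0 to 1 with 1 array left out. The Sting-ko mice gave 45 on slide 1 and 127 by the unadjusted Mann-Whitney test.

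On slide 2 alone the Fcgr2b-ko change turned for Isg15 (−0.355), Ube2l6 (−0.012), Usp18 (−0.338) and the second Trim25 probe (0.186). There the double-deficient against the Fcgr2b-ko change turned for Isg15 (0.070), Uba7 (0.203), Ube2l6 (0.335), Herc6 (0.594), Usp18 (0.152) and Trim25 (−0.041), with a median over members of 0.177. Also on slide 2, the double-deficient against WT change of Ube2l6 was 0.323 and of Herc6 0.692, the Sting-ko change of Usp18 was −0.171, and the interaction was 0.012 for Herc6, 0.323 for Usp18, −0.092 for the second Trim25 probe and −0.204 for the median over members. On slide 1 the Fcgr2b-ko change of Trim25 was −0.155, its double-deficient against Fcgr2b-ko change −0.236, its double-deficient against WT change −0.391 and its Sting-ko change −0.203, while the double-deficient against WT change was 0.051 for Isg15 and −0.190 for Uba7, and the interaction of the second Trim25 probe −0.083. With the slide as a block the second Trim25 probe was at 0.012 (Fcgr2b-ko), Trim25 at −0.040 (double-deficient against Fcgr2b-ko) and Ube2l6 at 0.121 (double-deficient against WT). Scaling by the array median moved the median of all probes from −0.055 to −0.21 in the Fcgr2b-ko comparison and to −0.11, −0.24 and 0.32 in the double-deficient against WT, the Sting-ko and the interaction comparison, with Trim25 at −0.112, −0.068, −0.199 and 0.242 and Usp18 at −0.044 in the Sting-ko comparison. With normexp, quantile scaling and the authors' table, Trim25 was at −0.003, −0.083 and −0.085 (double-deficient against Fcgr2b-ko), and Ube2l6 was at 0.000 with quantile scaling and 0.015 in the authors' table (double-deficient against WT). With the animal number as a random block Trim25 was at −0.120 (Fcgr2b-ko), −0.001 (Sting-ko) and 0.223 (interaction), and Isg15 at 0.019 (double-deficient against WT). The cause of these turns was not tested.

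With 1 array left out, the members whose sign turned ranged as follows. In the Fcgr2b-ko change Ube2l6 ran from −0.009 to 0.658, Herc6 from −0.018 to 1.114, Trim25 from −0.099 to 0.169 and its second probe from −0.119 to 0.144. In the double-deficient against the Fcgr2b-ko change Trim25 ran from −0.120 to 0.148. In the double-deficient against WT change Isg15 ran from −0.357 to 0.047, Uba7 from −0.146 to 0.644, Ube2l6 from −0.292 to 0.321, Herc6 from −0.449 to 0.348, Trim25 from −0.031 to 0.145 and Usp18 from −0.532 to 0.173. In the Sting-ko change Herc6 ran from −0.046 to 0.956, Trim25 from −0.036 to 0.117 and Usp18 from −0.175 to 0.564, and in the interaction Trim25 ran from −0.164 to 0.104 and its second probe from −0.128 to 0.198. The correlations of Isg15 on slide 2 lost significance, at 0.58 with Uba7, 0.31 with Ube2l6, 0.43 with Herc6 and 0.70 with Usp18, while that with Trim25 was −0.13 there, −0.16 with median scaling, 0.54 with quantile scaling and 0.60 in the authors' table, and that with the second Trim25 probe was 0.11 in the authors' table.

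The replicate numbers did not pair the mice, since the correlation of deviations between same-numbered arrays ran from −0.603 to 0.689 over 24 pairs, with a median of −0.058, and 5 of 16 arrays correlated best with their own number. With the replicate number as a block, 16 probes were called in the Fcgr2b-ko against the WT mice and 0 in every other comparison, with Isg15 at 1.09 in the first. The animal number is the first number of each mouse's label, whose meaning is not given in the sources used here, and 3 such numbers were each shared by 2 arrays. As a random block it had an estimated correlation of 0.827, and the probes at an unadjusted p under 0.05 went from 1192 to 822 in the Fcgr2b-ko against WT and from 645 to 3611 in the double-deficient against Fcgr2b-ko comparison. Arrays that share a number may thus not be independent, whereas the main fit took all 16 as independent. Over the alternative fits, the lowest adjusted p in limma for the double-deficient against the Fcgr2b-ko mice was 0.228 for Isg15 and 0.236 for Usp18. With 4 mice a group the intervals of Isg15 span more than 4-fold, and the low signal of Herc6 bounds what its array values can show.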
